A study of Mus musculus with 36 samples.

Results

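Replication timing (RT) states of wild-type (WT) primary B cells were set against those of mouse embryonic fibroblasts (MEFs) in 20 kb bins of the 19 autosomes. A bin was kept where both maps gave it a state, and 120754 of the 123624 autosomal bins were kept. The other 2870 bins lacked a state in the primary B map, and 0 lacked one in the MEF map. With chromosome X the genome held 131957 bins. The method was Repli-seq. In the study's own protocol, dividing cells were pulsed with the thymidine analogue BrdU for 2 h and sorted into early and late S phase by DNA content. BrdU-labelled DNA of each fraction was then precipitated and sequenced, and the balance of early against late reads (log2 E/L) placed each bin on a scale from early to late. The labelling and sorting of the MEFs are not given in the sources used here. Each deposited map reduced that ratio to 3 states, called early, middle and late (E, M and L below).

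The primary B map came from activated splenic B cells of WT (Rif1+/+) mice, and rested on 4 libraries, which were 2 replicates each of the early and late S phase fractions. The study's methods describe repeat sorts of a fraction as technical replicates in one place, and sequencing replicates as separately kept cultures in another, so the kind of these replicates is not settled. The MEF map carried no sample label. The study's list of data sets gives WT MEF Repli-seq as a public data set of other origin, and the genotype beyond WT, the strain and the passage of these fibroblasts are not given in the sources used here. Cell type and origin of the data therefore cannot be told apart in any difference between the maps. A further map, of CH12 cells infected with an shRNA against LacZ, was used only as a point of reference. CH12 is a mouse B cell lymphoma line. Each side had a single map, made after replicates were pooled, so no value below has a replicate error, no test between the maps was possible, and p-values are not given. The maps hold no read depth and no expression. Wilson 95% intervals in parentheses cover counting over bins, domains or edges only, and neighbouring bins share their signal through smoothing.

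Mammalian chromosomes replicate in large domains whose timing is set in each cell type, and part of the genome changes timing when cells differentiate. Early domains are typically rich in genes and in active chromatin, and late domains are poor in genes and often lie at the nuclear lamina. Stretches of intermediate timing link both kinds, and include regions that one fork crosses from an early into a late domain. In B cells, the genes of the B cell receptor and of its signalling are active, whereas fibroblasts are defined by collagens and other matrix genes and by regulators of mesenchyme.

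Genes were placed by the state of the bin that holds their start. The 250 bases before the start are shown for 4 genes on the results' main axis, with each CG dinucleotide in capitals, in the orientation of the gene and from the NCBIM37 (mm9) assembly. Cd53 (chr3:106593068-106593317, minus strand), a tetraspanin of white blood cells, and Samsn1 (chr16:76022516-76022765, minus strand), a signalling adaptor of haematopoietic cells, were E in primary B cells and L in MEFs. Col3a1 (chr1:45368133-45368382, plus strand), a fibrillar collagen, and Prrx1 (chr1:165243842-165244091, minus strand), a homeodomain factor of limb and other mesenchyme, were L in primary B cells and E in MEFs. The 4 genes were chosen after their states were seen.
Cd53: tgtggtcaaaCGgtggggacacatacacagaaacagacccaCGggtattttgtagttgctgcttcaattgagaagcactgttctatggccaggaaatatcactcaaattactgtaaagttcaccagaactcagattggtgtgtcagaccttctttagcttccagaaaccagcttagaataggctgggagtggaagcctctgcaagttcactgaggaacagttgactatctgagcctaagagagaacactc
Samsn1: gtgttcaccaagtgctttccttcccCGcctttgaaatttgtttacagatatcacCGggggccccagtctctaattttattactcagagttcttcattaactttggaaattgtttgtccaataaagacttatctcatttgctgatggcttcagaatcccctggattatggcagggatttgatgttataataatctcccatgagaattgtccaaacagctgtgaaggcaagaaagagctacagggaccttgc
Col3a1: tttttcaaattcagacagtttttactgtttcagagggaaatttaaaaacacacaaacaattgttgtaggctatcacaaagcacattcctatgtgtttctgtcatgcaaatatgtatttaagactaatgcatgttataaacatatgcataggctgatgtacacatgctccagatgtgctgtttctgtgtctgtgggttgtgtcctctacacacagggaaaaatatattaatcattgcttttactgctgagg
Prrx1: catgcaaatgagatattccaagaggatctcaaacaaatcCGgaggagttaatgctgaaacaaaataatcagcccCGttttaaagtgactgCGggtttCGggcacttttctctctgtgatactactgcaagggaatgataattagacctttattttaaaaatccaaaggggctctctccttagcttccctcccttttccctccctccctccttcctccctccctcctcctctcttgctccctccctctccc
These 250 bases held 4 CG dinucleotides at Prrx1, 2 each at Cd53 and Samsn1, and 0 at Col3a1. The share of CG-rich starts among all switched genes is given below.

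The first comparison was of how each map divided the shared bins. E bins made up 29.7% of them in primary B cells (29.5 to 29.97%) and 33.6% in MEFs (33.3 to 33.8%). M bins made up 32.2% (31.9 to 32.4%) and 37.4% (37.1 to 37.6%). L bins made up 38.1% in primary B cells (37.8 to 38.4%) and 29.0% in MEFs (28.8 to 29.3%). The MEF map was thus the earlier one in its make-up, with more E, more M and less L. The M and L differences held on all 19 autosomes. The E share was higher in MEFs on 18 of 19, and chromosome 19 was the exception, where it differed by -0.391 percentage points. The RT values at which the states divide are not in the maps and may differ between them, so a shift in make-up and a shift in those dividing values cannot be told apart. Within each map the states were ordered alike. E and L bins touched in 0 places, and mean GC content was 45.3% in E, 42.4% in M and 39.0% in L bins in primary B cells and 45.3%, 41.6% and 38.4% in MEFs.

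Both maps gave the same state to 82785 bins, which is 68.6% (68.3 to 68.8%), with a Cohen's kappa of 0.530. Of the 37969 bins that differed, 26308 were earlier in MEFs and 11661 were earlier in primary B cells. Those are 21.8% and 9.66% of all shared bins. Most of the differing bins, 95.7%, were 1 step apart (E against M, or M against L). The other 1633 bins lay at opposite ends of the scale. Of all differing bins, 46.1% lay within 100 kb of a state boundary in either map, as did 31.1% of all shared bins.

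E was the state of primary B cells that the MEF map kept most often. Of 35883 bins E in primary B cells, 28611 (79.7%) were E in MEFs, 6930 (19.3%) were M and 342 (0.953%) were L. Of 46011 bins L in primary B cells, 30347 (66.0%) were L in MEFs, 14373 (31.2%) were M and 1291 (2.81%) were E. M bins of primary B cells split to both sides, with 23827 (61.3%) M, 10644 (27.4%) E and 4389 (11.3%) L in MEFs. Read from the MEF side, the order was the opposite one. Of MEF L bins, 86.5% were L in primary B cells, whereas 70.6% of MEF E bins were E there. Late DNA of MEFs was thus mostly late in primary B cells, while a large part of the late DNA of primary B cells was middle in MEFs.

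**Figure D1:**
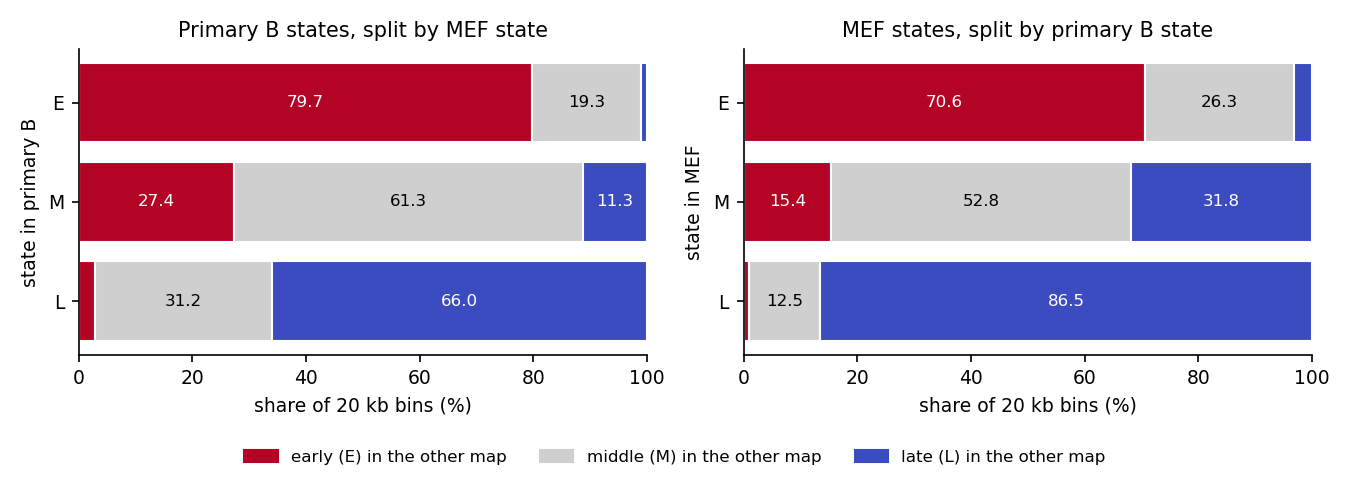
Share of 20 kb bins (%) in each state of the other map, for the 3 states of primary B cells (left) and of MEFs (right), over 120754 shared autosomal bins. Red is E, grey M and blue L in the other map. Of primary B L bins 66.0% were L in MEFs, and of MEF L bins 86.5% were L in primary B cells.

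All 19 autosomes had more bins earlier in MEFs than earlier in primary B cells. The share of bins in the same state ran from 59.8% on chromosome 13 to 74.4% on chromosome 19. Chromosome 13 also had the highest share earlier in MEFs, 27.7%, and chromosome 19 the lowest, 13.2%. Chromosome 8 had the lowest share earlier in primary B cells, 3.98%, and chromosome 6 the highest, 14.02%. On chromosome 19 the 2 directions were close, with 12.4% earlier in primary B cells. Bins that were L in primary B cells and E in MEFs were most frequent on chromosome 1, with 222, and bins of the reverse kind on chromosome 16, with 49. Chromosomes 9, 14 and 15 held 0 bins that were E in primary B cells and L in MEFs.

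**Figure D2:**
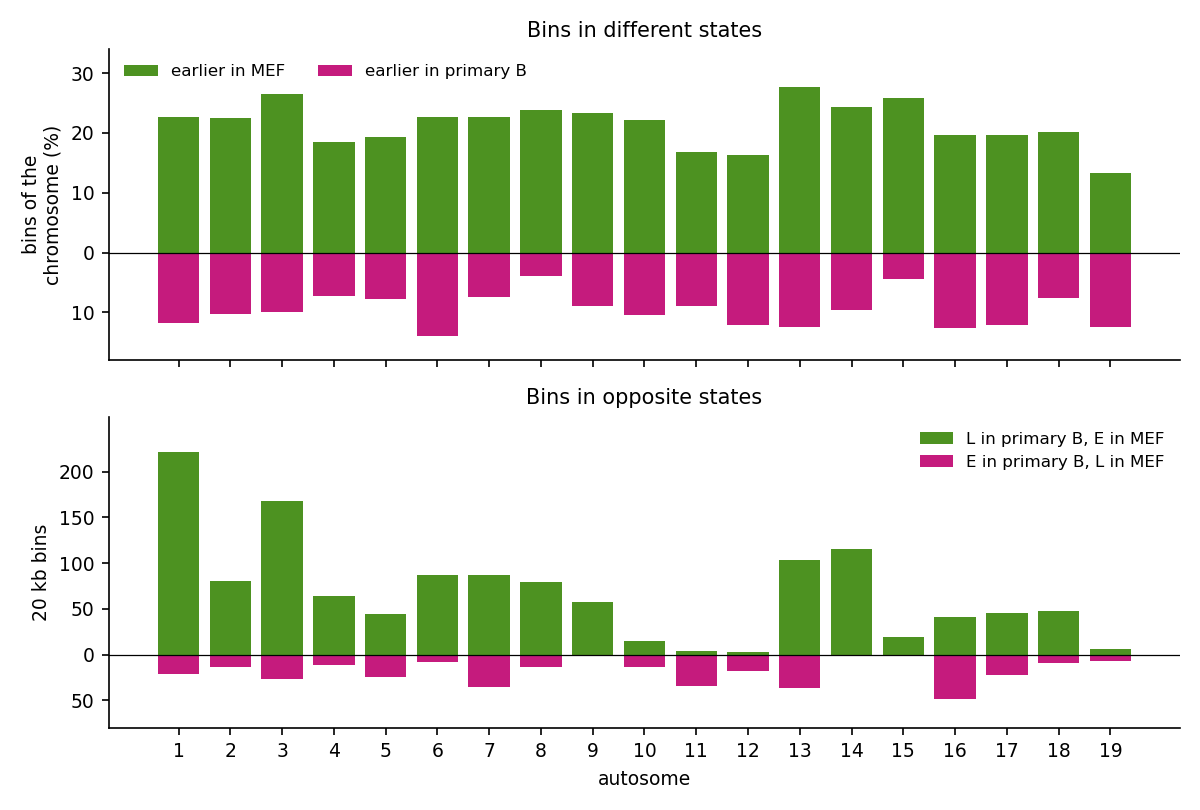
Bins per autosome that differed between primary B cells and MEFs. Top, percent of the chromosome's shared bins earlier in MEFs (green, upwards) and earlier in primary B cells (magenta, downwards). Bottom, number of 20 kb bins L in primary B cells and E in MEFs (green, upwards) and E in primary B cells and L in MEFs (magenta, downwards). Green exceeds magenta on every autosome in the top panel, and not on chromosomes 11, 12, 16 and 19 in the bottom panel.

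The states were next compared as domains, which are unbroken stretches of 1 state. MEF domains were fewer and longer. There were 631 E domains in primary B cells (median length 760 kb) and 568 in MEFs (960 kb), 1251 M domains (440 kb) and 1038 (600 kb), and 608 L domains (920 kb) and 464 (960 kb). Domains of the same state in the 2 maps counted as matched where each covered at least 50% of the other. By this rule 276 E domains were matched, 43.7% of those of primary B cells (39.9 to 47.6%) and 48.6% of those of MEFs (44.5 to 52.7%). The shares were 20.3% and 22.5% when 80% was required, and 79.1% and 77.5% at any overlap, where the order of the maps turned. For L there were 228 matched domains, 37.5% of those of primary B cells (33.7 to 41.4%) and 49.1% of those of MEFs (44.6 to 53.7%), with 16.9% and 22.2% when 80% was required and 64.3% and 91.2% at any overlap.

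Matched E domains were more often longer in MEFs, and matched L domains more often longer in primary B cells. Of the 276 E pairs, 153 were longer in MEFs, 111 in primary B cells and 12 equal, with a median difference of 60 kb (MEF minus primary B, quartiles -105 and 305 kb). Of the 228 L pairs, 84 were longer in MEFs and 138 in primary B cells, with a median difference of -100 kb (quartiles -360 and 145 kb). The edges of matched E domains lay a median of 100 kb apart (quartiles 40 and 260 kb), which is below the 300 kb span over which the authors smoothed RT. Over all domains, an edge of the same state that faced the same way lay within 100 kb in the other map for 384 of 1257 E edges of primary B cells (30.5%) and of 1130 in MEFs (33.98%). For L edges it was 276 of 1206 (22.9%) and of 913 (30.2%). M stretches that joined an E to an L domain were longer in MEFs, with a median of 540 kb over 491, than in primary B cells, with 380 kb over 680.

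A domain could also lie where the other map had none of its state. That was so for 132 E domains of primary B cells (20.9%), which had a median length of 400 kb, against 940 kb for the others. It was so for 128 MEF E domains (22.5%), for 217 L domains of primary B cells (35.7%) and for 41 L domains of MEFs (8.84%). Most of these lay wholly in M of the other map, as 111 of the 132 and 157 of the 217 did. The longest E domain of primary B cells, 6700 kb at chr17:23660001-30360000 with 215 protein-coding gene starts, was E in all 335 of its bins in MEFs. The longest of MEFs, 12100 kb at chr9:55640001-67740000 with 155 starts, had 499 E and 106 M bins out of 605 in primary B cells. Of the longest L domain of primary B cells, 10280 kb at chr1:109520001-119800000 with 4 starts, 506 bins were L and 8 were M in MEFs. Of the longest L domain of MEFs, 9880 kb at chr4:70340001-80220000 with 20 starts, 477 bins were L and 17 were M in primary B cells.

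Bins that went from one end of the scale to the other were then joined into runs, a run being an unbroken stretch of bins in opposite states. Only 0.283% of shared bins were E in primary B cells and L in MEFs. Without bins within 100 kb of a boundary these 342 bins fell to 120. They formed 30 runs on 16 autosomes, 6.84 Mb in all, with a median length of 200 kb (quartiles 85 and 300 kb). The reverse kind made up 1.07% of shared bins. Its 1291 bins, 587 without those near a boundary, formed 90 runs on 19 autosomes, 25.82 Mb in all, with a median of 240 kb (quartiles 120 and 420 kb). Runs of at least 300 kb, the smoothing span, numbered 9 and 35. On 15 of 19 autosomes, bins late in primary B cells and early in MEFs were the more frequent kind.

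The CH12 map was read at the same bins. In the runs early in primary B cells and late in MEFs, 11.99% of bins were E, 50.6% M and 37.4% L in CH12 cells, whereas over all E bins of primary B cells 74.2% were E in CH12 cells. In the runs late in primary B cells and early in MEFs, 91.2% of bins were L, 8.75% M and 0% E in CH12 cells, and over all L bins of primary B cells 96.2% were L. CH12 cells thus had the late state of primary B cells in 69 of the 90 runs from end to end, and the early state of primary B cells in 1 of the 30. That 1 run was a single bin of 20 kb, which holds the start of Sp100. The CH12 and primary B maps come from the same laboratory and pipeline, and the part of that in these shares was not tested.

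**Figure D3:**
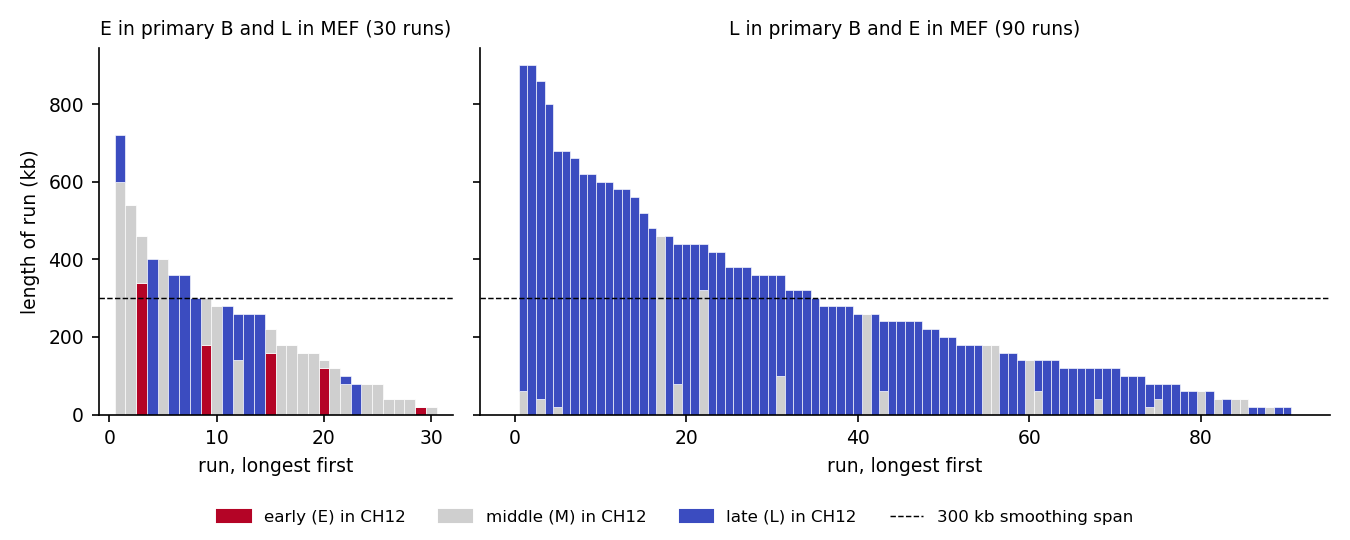
Length (kb) of each run of bins in opposite states, longest first, for 30 runs E in primary B cells and L in MEFs (left) and 90 runs of the reverse kind (right). Colours within a bar give the share of the run that was E (red), M (grey) or L (blue) in CH12 cells, and the dashed line marks the 300 kb smoothing span. CH12 cells were L in 91.2% of bins on the right and M or L in most bins on the left.

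Of the 30 runs early in primary B cells and late in MEFs, 13 held no protein-coding gene start and the others held 60 in all. The longest, 720 kb at chr13:82880001-83600000, held none, and ended 43.0 kb before the start of Mef2c, a MADS-box transcription factor used in B cells and in muscle. CH12 cells had 30 M and 6 L bins there. The second, 540 kb at chr3:106180001-106720000, held the starts of BC051070, Dennd2d, 2010016I18Rik, Dram2, Cept1 and 4933421E11Rik and of 2 more genes, Cd53 among them, and all its 27 bins were M in CH12 cells. Dennd2d regulates membrane traffic, and Cept1 makes phospholipids. The next, 460 kb at chr11:24020001-24480000, held no start but overlapped Bcl11a, a zinc finger repressor needed for lymphocyte development, whose start lay 41.9 kb away. CH12 cells had 17 E and 6 M bins there. It is 1 of 5 runs of this kind with any E bin in CH12 cells.

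The fourth run, 400 kb at chr5:63020001-63420000, held Arap2, a GTPase-activating protein, and Gm17384, and was L throughout in CH12 cells. The fifth, 400 kb at chr7:111240001-111640000, held 17 starts. Among them were Olfr646, 4931431F19Rik, Ubqlnl, E030002O03Rik and Olfr648, and the antiviral Trim5, Trim12a, Trim30a and their neighbours. The sixth, 360 kb at chr16:75740001-76100000, held Hspa13 and Samsn1. The seventh, 360 kb at chr17:52060001-52420000, held no start, and the nearest was that of Satb1, a chromatin organiser of lymphocytes, at 87.4 kb. The eighth, 300 kb at chr7:113640001-113940000, held Gm1966 and 6 olfactory receptor genes from Olfr693 to Olfr699. The ninth, 300 kb at chr16:27180001-27480000, held Ostn, Uts2d and Ccdc50. The last of the 10 longest, 280 kb at chr2:43420001-43700000, held Arhgap15, a Rac GTPase-activating protein of blood cells. In CH12 cells the sixth, seventh and eighth runs, those of Samsn1 and near Satb1 among them, were L throughout. The fifth run and the last were M throughout there, and the ninth had 9 E and 6 M bins. Genes with near-identical copies, such as the Trim30 and olfactory receptor genes, lie where short reads align uniquely less often, and the part of this in their states was not tested.

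The 2 longest runs late in primary B cells and early in MEFs were of 900 kb each. One, at chr3:54700001-55600000, held 6030405A18Rik, Ccna1, Spg20, A730037C10Rik, Sohlh2 and Dclk1 and 1 more gene, Mab21l1. Ccna1 is a cyclin of germ cells and Dclk1 a kinase bound to microtubules. The other, at chr4:63940001-64840000, held Pappa, a secreted protease that cleaves binding proteins of insulin-like growth factors. The next, 860 kb at chr7:141120001-141980000, held Adam12, D7Ertd443e and Dock1. Adam12 is a membrane-bound metalloprotease and Dock1 activates the GTPase Rac. The fourth, 800 kb at chr16:85740001-86540000, held Adamts1 and Adamts5, secreted proteases of matrix proteoglycans. It was a whole E domain of MEFs, and all 40 of its bins were L in primary B cells and in CH12 cells.

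The fifth run, 680 kb at chr1:90740001-91420000, held Sh3bp4 and Agap1, which act in endocytosis and membrane traffic. The sixth, 680 kb at chr17:14000001-14680000, held Gm7168, Gm7356, Gm7358, Dact2 and Smoc2. Dact2 modulates Wnt and TGF-beta signalling, and Smoc2 is a secreted matrix-associated protein. The seventh, 660 kb at chr3:144540001-145200000, held Gm6289, AI747448, Clca6, Clca3, Clca5 and Odf2l and 1 more gene, the collagen Col24a1. The eighth, 620 kb at chr1:45200001-45820000, held the neighbours Col3a1 and Col5a2, both of them fibrillar collagens. The ninth, 620 kb at chr1:164880001-165500000, held 4 starts, among them 4921528O07Rik, Prrx1 and Gorab. The last of the 10, 600 kb at chr14:23420001-24020000, held no start and overlapped 1700112E06Rik, and the nearest start was that of Gm5670, at 42.3 kb. Of the 90 runs, 35 held no start and 14 overlapped no protein-coding gene.

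**Figure D4:**
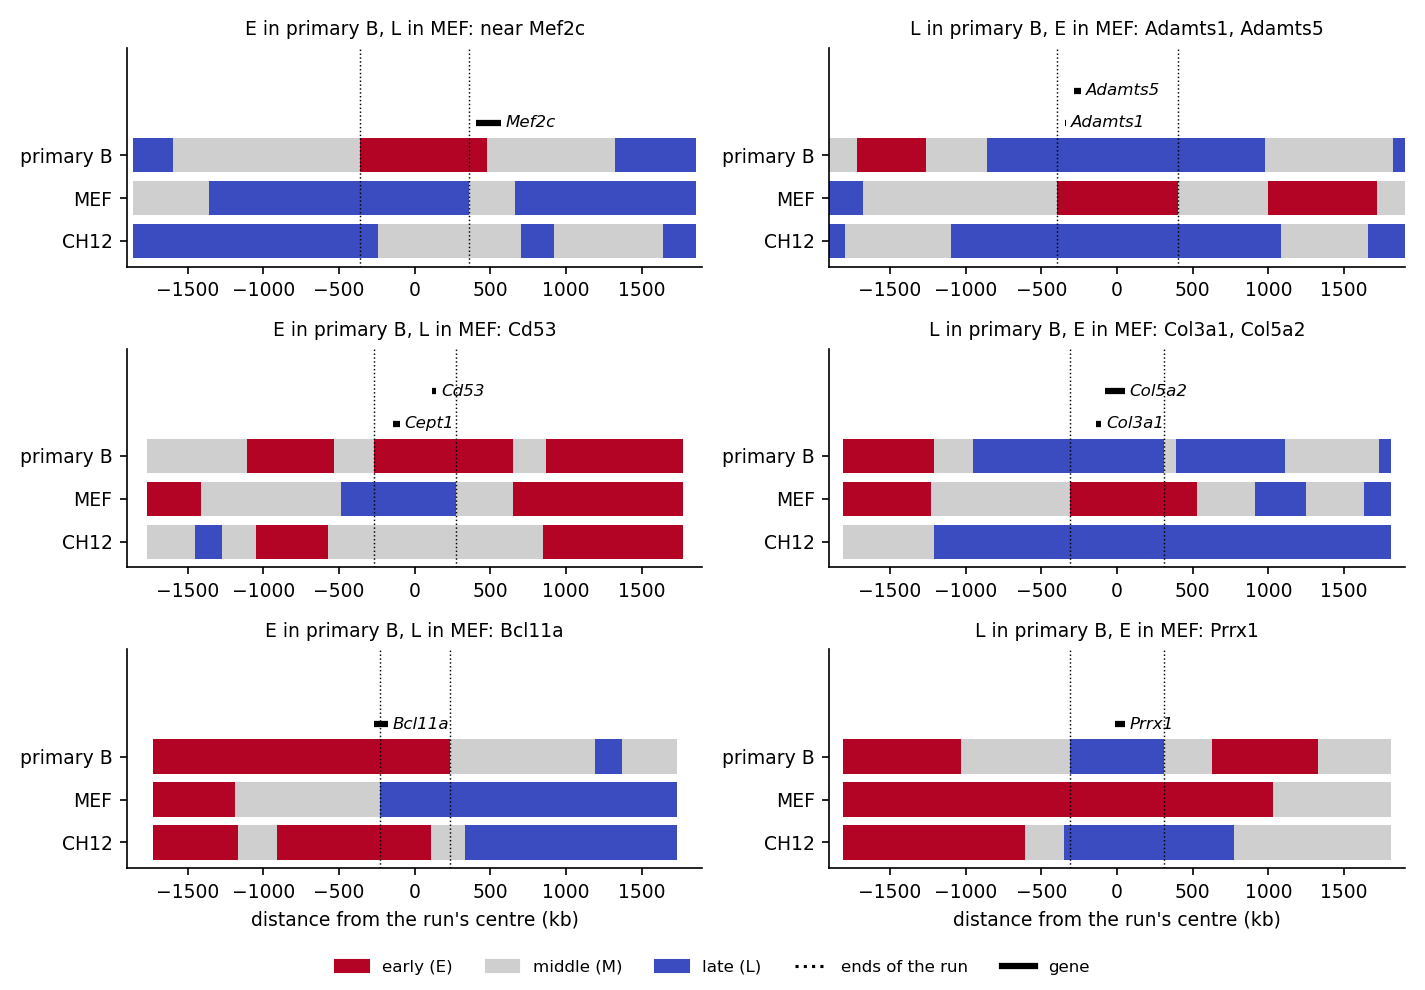
RT states of primary B cells, MEFs and CH12 cells around 6 runs, against distance from the run's centre (kb), with E in red, M in grey and L in blue, dotted lines at the ends of the run and black bars for genes. Left, 3 runs E in primary B cells and L in MEFs (720, 540 and 460 kb), and right, 3 runs of the reverse kind (800, 620 and 620 kb). The Prrx1 run is an L domain of primary B cells inside a longer E domain of MEFs, and the Adamts1 and Adamts5 run is a whole E domain of MEFs inside a longer L domain of primary B cells.

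Some domains switched as a whole, being L in one map over every bin of an E domain of the other. Of the 631 E domains of primary B cells, 9 lay wholly in L of MEFs. The longest were the Arap2 and Trim domains named above, at 400 kb each. Of the 568 MEF E domains, 13 lay wholly in L of primary B cells. After that of Adamts1 and Adamts5 the longest with a gene start were those of Lin7c, Lgr4, Ccdc34 and Bbox1 (580 kb), of Klf5 (440 kb) and of Wbscr17 (360 kb). Klf5 is a Krueppel-like transcription factor of epithelium and smooth muscle. Shorter ones held Dpysl3 and the end of Tgfb2 away from its start, which encodes a transforming growth factor beta. Conversely, 15 L domains of primary B cells lay wholly in E of MEFs, among them those of Prrx1 (620 kb), of Apcdd1, Napg and Fam38b (600 kb), and of Gli2 (440 kb), a transcription factor of hedgehog signalling. No L domain of MEFs (0 of 464) lay wholly in E of primary B cells.

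The longest changes of 1 step exceeded the longest switch between E and L, which was 900 kb. The longest stretch E in primary B cells and M in MEFs covered 2120 kb at chr10:18940001-21060000, with 16 gene starts, among them Myb, a transcription factor of blood progenitors, and Ifngr1, an interferon gamma receptor chain. The next, 1860 kb at chr10:42840001-44700000, held Prdm1, the plasma cell regulator, and Cd24a. The last, 1600 kb at chr3:85720001-87320000, held Fc receptor-like genes of B cells (Fcrl1, Fcrl5) and the lipid antigen-presenting Cd1d1 and Cd1d2. M in primary B cells and L in MEFs covered 2540 kb at chr1:85000001-87540000, around Sp110 and Sp140, and 2420 kb at chr6:67540001-69960000, in the kappa light chain V segments. In the other direction, the longest stretch M in primary B cells and E in MEFs was 2060 kb at chr13:97380001-99440000, with 17 starts, among them the forkhead gene Foxd1. A stretch of 1840 kb at chr1:62540001-64380000 held Nrp2, a semaphorin receptor, and Klf7. A stretch of 1740 kb at chr6:116920001-118660000 held Cxcl12, a chemokine of stroma, and Ret. The longest of all, 2820 kb at chr13:25400001-28220000, was L in primary B cells and M in MEFs and held the prolactin family cluster among its 26 starts. Genes in this paragraph were chosen from each stretch after their names were seen.

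At gene starts the maps were more alike than over all bins. Of 21418 autosomal protein-coding genes, 16287 (76.0%) had the same state at their start. Starts lay more in E, which held 12676 of them in primary B cells, against 29.7% of bins. Of starts E, M and L in primary B cells, 11066 of 12676, 3530 of 6044 and 1691 of 2698 kept their state in MEFs. For bins these shares were 79.7%, 61.3% and 66.0%. State by state, only E was thus kept more often at starts than over bins, and M and L less often. Starts earlier in primary B cells numbered 2211, or 10.3%, and starts earlier in MEFs 2920, or 13.6%. Starts that were E in primary B cells and L in MEFs numbered 60, or 0.28%, and the reverse kind 107, or 0.5%. Of the 60, 13 were olfactory receptor genes, and in CH12 cells 4 were E, 36 M and 20 L. Of the 107, 0 were olfactory receptor genes, and in CH12 cells 97 were L and 10 M. Beside the genes of the longest runs, the 60 included Aim2, a cytosolic DNA sensor of the innate response, with its neighbour Pydc4, and the lysosomal Lamp3, and the 107 included Ptgs2, which makes prostaglandins, Inhba, an activin subunit, Ghr, the growth hormone receptor, the Wnt inhibitor Dkk2, the neurofilament genes Nefl and Nefm, and the epidermal growth factor family ligands Areg, Ereg and Epgn. These were named after their states were seen.

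The switched bins stood between the constant classes in base composition and gene content. Bins E in both maps had a median GC content of 45.8% and 19.3 gene starts per Mb, and bins L in both had 37.9% and 2.79 per Mb. Bins E in primary B cells and L in MEFs had 39.5% and 8.77 per Mb, near the 8.87 per Mb of all shared bins. Their 60 starts were spread unevenly, with 17 in the 400 kb Trim run on chromosome 7 and none in 13 of the 30 runs. The same 60 starts enter the share of CpG-rich starts below. Bins L in primary B cells and E in MEFs had 41.4% and 4.14 per Mb. The latter genes were long. Their median length was 35.3 kb, against 16.6 kb for the genes E in primary B cells and L in MEFs and 15.5 kb for all. Of them, 27.1% exceeded 100 kb, against 10.6% of all. That share was not particular to them. Of genes L in primary B cells and M in MEFs, 26.1% exceeded 100 kb, with a median of 17.6 kb. Of those M in primary B cells and E in MEFs, 17.3% did, with a median of 25.3 kb. A start was called CpG-rich where the window from 250 bases before to 50 after it had a GC content of at least 50% and at least 0.6 of the CG dinucleotides its base composition predicts, as 42.8% of all genes did. Of starts E in both maps, 53.9% were CpG-rich. The share was 15% (9 of 60) for genes E in primary B cells and L in MEFs, 33.6% (36 of 107) for the reverse kind and 9.82% for genes L in both. Cd53, Samsn1, Col3a1 and Prrx1, shown above, were not CpG-rich.

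Gene lists that represent cell types were read next. All 21 genes of the transcription factor list and all 33 of the receptor and surface list were E in primary B cells, so that they could differ only by being later in MEFs, and their base is the 12676 genes E in primary B cells, of which 1610 (12.7%) were later in MEFs. Of 21 B cell transcription factors, 6 were later in MEFs (28.6%). Pax5, which fixes B cell identity, Ikzf1, Bcl11a, Mef2c, Foxp1 and Prdm1 were each E in primary B cells and M in MEFs. The other 15, among them Ebf1, Bcl6 and Irf4, were E in both. By the state of most of the gene body, 6 were also later in MEFs, but not the same 6. Mef2c was then M in both maps, and Ebf1 was E in primary B cells and M in MEFs. Bcl11a was E in primary B cells and L in MEFs by this measure. Of 33 B cell receptor and surface genes, 10 were later in MEFs (30.3%) and 23 were E in both. The 10 included Ms4a1 (CD20), the complement receptor Cr2, the low-affinity IgE receptor Fcer2a, the adaptors Blnk and Bank1, Cd38 and Btla, all E in primary B cells and M in MEFs. Of the markers of B cells that were used to check the map's label, Cd79a, Cd79b, Cd22 and Ebf1 were E in both maps, and Ms4a1, Pax5, Cr2 and Fcer2a were E in primary B cells and M in MEFs.

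Of 36 collagen and matrix genes, 23 were earlier in MEFs (63.9%, against 13.6% of all genes). All 23 were among the 26 that were M or L in primary B cells (88.5%, against 33.4% of all genes M or L there), and the other 10 were E in both maps. Col3a1, Col5a2 and Postn, which encodes the matrix protein periostin, were L in primary B cells and E in MEFs. Col11a1, Lum, Fbn2 and Mmp2 were L in primary B cells and M in MEFs, and 16 genes went from M to E, among them Col1a2, Col6a1, Col14a1, Fn1 (fibronectin), Fbn1 (fibrillin) and Lox, which cross-links collagen. Col1a1 was E in both, so the genes of the 2 chains of type I collagen, which lie on different chromosomes, had different states in primary B cells. Of 58 mesenchymal regulators and receptors, 24 were earlier in MEFs (41.4%, and 60% of the 40 that were M or L in primary B cells) and 2, Zeb2 and Yap1, were earlier in primary B cells. Prrx1 went from L to E. The 10 that went from L to M included Bmp4, Wnt5a, Cdh2, Cdh11 and Tgfb2, and the 13 that went from M to E included Pdgfra, Fgfr1, Twist2 and Alx4. Of the 10 fibroblast markers used to check the label, Col3a1 and Prrx1 were E in MEFs and L in primary B cells, Col1a2 and Pdgfra were E and M, Lum was M and L, Col1a1, Pdgfrb and Thy1 were E in both, and Twist1 and Dcn were M in both. Twist1 and Dcn were thus in the same state in a map named for fibroblasts as in B cells. Timing is not expression, and no cell type was called from it.

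**Figure D5:**
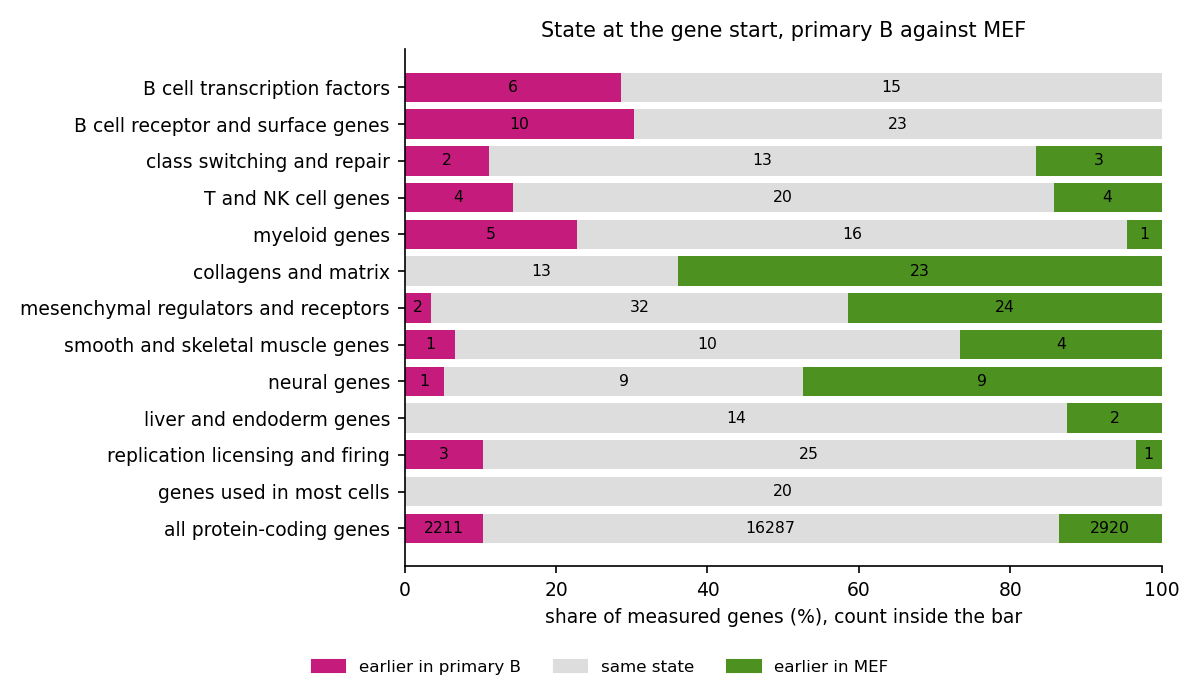
Percent of the measured genes of each list whose start was earlier in primary B cells (magenta), in the same state (grey) or earlier in MEFs (green), with counts inside the bars and all 21418 protein-coding genes in the bottom bar. All genes of both B cell lists were E in primary B cells and so could not be earlier in MEFs, 23 of 36 collagen and matrix genes were earlier in MEFs, and all 20 genes used in most cells have the same state.

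Lists of other lineages are set beside the shares of all genes, 10.3% earlier in primary B cells and 13.6% earlier in MEFs. Of 22 myeloid genes, 5 were earlier in primary B cells (22.7%), among them Cd33, Clec7a and Csf2ra, and 1, Cebpa, was earlier in MEFs. Of 28 T and NK cell genes, 4 were earlier in primary B cells, among them Cd8a and Cd8b1, and 4 in MEFs, among them Bcl11b and Eomes. Each is 14.3%, near the share of all genes. On the base used for the B cell lists, genes E in primary B cells, the shares lay further from that of all genes. Later in MEFs were 4 of 19 T and NK cell genes (21.1%) and 5 of 21 myeloid genes (23.8%). All genes on that base gave 12.7%, and the B cell lists 28.6% and 30.3%. Of 19 neural genes, 9 were earlier in MEFs (47.4%) and 1, Gad1, in primary B cells. Ncam1, a cell adhesion molecule, went from L to E at its start, though from L to M by the state of most of its body. Gria2 and Elavl4 were among 7 that went from L to M. Of 15 muscle genes, 4 were earlier in MEFs (26.7%), the myogenic Myf5, Myf6 and Myocd and Ttn, all from L to M, and 1, Myod1, was earlier in primary B cells. Of 16 liver and endoderm genes, 2, the neighbours Alb and Afp, were earlier in MEFs (12.5%) and 0 in primary B cells. Of all genes M or L in primary B cells, 33.4% were earlier in MEFs. On that base neural genes gave 9 of 15 (60%), the share of the mesenchymal list, and muscle genes 4 of 6 (66.7%). T and NK cell genes gave 4 of 9 (44.4%) and liver and endoderm genes 2 of 10 (20%). Of genes E in primary B cells, 1 of 4 neural, 1 of 9 muscle and 0 of 6 liver and endoderm genes were later in MEFs. Neighbouring genes share a domain, so the members of a list are not independent of each other.

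Genes of the study's own subject were read last. Of 18 genes of class switching and its repair, 2 were earlier in primary B cells, both of them E there and M in MEFs. One was Dclre1c, which encodes the nuclease Artemis. The 3 earlier in MEFs were Rif1 itself and Xrcc5, from M to E, and Xrcc4, from L to M. These shares, 11.1% and 16.7%, were near the 10.3% and 13.6% of all genes. Of 29 genes of replication licensing and firing, 25 had the same state, 3 were earlier in primary B cells (10.3%, as of all genes), namely Mcm6, Mcm7 and Orc5, and 1, Gins4, in MEFs (3.45%). Of 20 genes used in most cells, 20 had the same state, 19 of them E and 1, Sdha, M.

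Gene families that lie in clusters were read cluster by cluster, beside the same shares of all genes (10.3% earlier in primary B cells and 13.6% earlier in MEFs). These shares do not allow for the state in primary B cells, which limits the direction a gene can take. Of all genes E there, 12.7% were later in MEFs, and of all genes M or L there, 33.4% were earlier. Of the families below, all 8 Schlafen and 23 of 24 GTPase genes were E there. For olfactory receptor genes it was 91 of 1106, and for protocadherins 2 of 34. All 8 Schlafen genes, a cluster on chromosome 11 of interferon-induced genes, were E in primary B cells and M in MEFs. Of 24 guanylate-binding and immunity GTPase genes, 15 were earlier in primary B cells (62.5%), namely the Gimap cluster on chromosome 6 (8 genes), the Gbp cluster on chromosome 5 (6 genes) and Gvin1. The 5 Gbp genes on chromosome 3 were E in both. Of 32 C-type lectins, 19 were earlier in primary B cells (59.4%) and 0 in MEFs, and of 27 killer lectin-like receptors 9 (33.3%) and 0. All 9 of these receptors lie on chromosome 6, as do 13 of the lectins from E to M and 4 from M to L. Genes of the 2 families are thus not independent of each other. Olfactory receptor genes, of which 1106 were measured, were earlier in primary B cells for 205 (18.5%) and earlier in MEFs for 56 (5.06%), and zinc finger genes named Zfp were so for 69 (19.1%) and 20 (5.52%) of 362. In the other direction, 24 of 51 keratin genes were earlier in MEFs (47.1%) and 2 in primary B cells, with 16 of the chromosome 15 cluster and 8 of the chromosome 11 cluster going from M to E. Collagens gave 18 (42.9%) and 0 of 42, and protocadherins 15 (44.1%) and 0 of 34. Of the 4 Hox clusters, Hoxa, Hoxb and Hoxc were E in both maps and the 9 Hoxd genes (22.5% of 40 Hox genes) were M in primary B cells and E in MEFs. Chemokines and their receptors split by cluster. Of 53, 9 were earlier in primary B cells (16.98%), among them Ccr1 and Ccr2 on chromosome 9, and 16 were earlier in MEFs (30.2%), among them Ccl2 and Ccl7 on chromosome 11 and Cxcl1 and Cxcl5 on chromosome 5.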

How the data were processed

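Per the authors' methods, reads were trimmed with Trim Galore 0.6.5, aligned to mm9 with BWA 0.7.17, filtered for unique alignments with SAMtools 1.9, and pooled over replicates. The log2 early to late ratio in 20 kb windows came from deepTools and was loess-smoothed over 300 kb. A hidden Markov model then gave 3 states, and RT values were not used here. Whether all these steps also made the MEF map is not given in the sources used here. The deposited maps hold a score per domain, a state number made by the authors (2, 1 and 0 for E, M and L in primary B and CH12 cells, and 0, 2 and 1 in MEFs). E and L are the states that never touch, and E is the one of higher GC content.

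Domains were laid on 20 kb bins of NCBIM37 with Python 3.11.15, numpy 2.4.6 and pandas 2.3.3, and genes came from GENCODE M1. Of 320 list members, 315 had a state, 4 of them found through an older symbol in RefSeq. Named genes were those starting in the 10 longest runs a direction (6 by position where there were more), switched list members, up to 4 other members a list, and exceptions given in the text. Members and the 12 lists and 26 families were chosen with earlier results of these data known. The functions recovered 7 of 7 known answers on simulated data. Some items that fall under these rules are not reported here.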

Additional observations from a re-analysis of the deposited data

How the results depend on the processing

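No paired analysis was possible because each side is 1 map pooled over replicates. For the same reason no replicate could be left out. Of 201 alternative values of 122 results, which are single shares and counts with no direction of their own, 150 stayed within their limits (a 95% interval, or 1.5 times for a count) and 51 moved beyond them. Without bins within 100 kb of a boundary, primary B cells were 32.5% E, 25.2% M and 42.3% L and MEFs 35.6%, 30.7% and 33.7%. Agreement then was 75.4%, and MEFs kept 86.8% of E, 63.8% of M and 73.6% of L bins of primary B cells. Bins E in primary B cells and L in MEFs numbered 120, and the reverse kind 587. Agreement was 84.1% with M and L joined and 83.1% with M and E joined. Without bins of unknown bases, primary B cells were 31.8% M. In runs of at least 300 kb, bins E in primary B cells and L in MEFs numbered 192 in 9 runs, and the reverse kind had 35 runs. At 80% reciprocal overlap, 20.3% of E and 16.9% of L domains of primary B cells and 22.5% and 22.2% of those of MEFs were matched. Any overlap at all gave 79.1%, 64.3%, 77.5% and 91.2%, which turned the order of the maps for E. By gene body, cytochrome P450 genes turned from 13 earlier in primary B cells and 14 in MEFs to 14 and 12. With domains of at least 300 kb, 42.1% of L domains of primary B cells and 52.9% of E domains of MEFs were matched. Within 40 kb, 15.1% of E and 11.4% of L edges of primary B cells and 16.8% and 15.01% of those of MEFs were matched, and within 200 kb 41.6%, 35.7%, 46.4% and 47.1%. With all gene types, 74.5% of starts had the same state, 110 were E in primary B cells and L in MEFs, and 192 were the reverse kind. The cause of these moves was not tested. Read depth is unknown, so what it limits could not be given.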

Other observations

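Immunoglobulin segments, which the gene lists do not hold, were read after their states were seen. Of 112 V segments of the heavy chain locus on chromosome 12, 108 were earlier in primary B cells, with 95 going from M to L, 7 from E to L and 6 from E to M between primary B cells and MEFs, and 4 were M in both. Of 124 V segments of the kappa locus on chromosome 6, 108 were earlier in primary B cells (102 from M to L and 6 from E to L), 14 had the same state and 2 were earlier in MEFs. All 3 segments annotated at the lambda locus were E in primary B cells and M in MEFs. V segments are near-identical copies in part, and rearranged alleles of B cells lack some of them. The part of either in these states was not tested.

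Other gene types were nearer to the protein-coding genes. Of 1232 lincRNA genes, 8.60% were earlier in primary B cells and 15.8% in MEFs, and of 1468 miRNA genes 8.38% and 16.8%. Of 1458 snoRNA genes, 20.7% were earlier in MEFs and 9.47% in primary B cells.

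Set over the same 120754 bins, the CH12 map had the same state as MEFs in 62.1% (kappa 0.440) and as primary B cells in 76.2% (kappa 0.637). Bins L in CH12 cells and E in MEFs numbered 3856, and the reverse kind 161. These comparisons share their maps with that of primary B cells and MEFs.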
